A study of Mus musculus with 17 samples.

Results

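The leptin gene Lep lies on mouse chromosome 6, and 59 genes of its neighbourhood (Lep itself, 10 genes before it and 48 after it, in chromosome order) were followed through kidney libraries of mice that carry the ob mutation of Lep and of mice that do not. The genes were chosen by name as neighbours of Lep and found by their Ensembl identifiers in the deposited count table of 53379 genes. All 59 matched, and all lay on chromosome 6 between positions 25665878 and 39725463 (GRCm38), a stretch of 14.1 Mb from Gpr37 to Braf. The libraries were made from messenger RNA of kidney cortex enriched for glomeruli, 1 library from each of 17 mice. The 7 BTBR ob/ob mice labelled atrasentan drank the endothelin A receptor antagonist at 5 mg per kg body weight per day, from 18 to 24 weeks of age. The 5 BTBR ob/ob mice labelled saline received saline over the same 6 weeks. The 5 BTBR wild type mice served as age-matched controls. The genotype label of the treated mice reads 'BTBR ob', that of the saline mice 'ob/ob-d30' and that of the control mice 'WT-d30', and the sources used here do not explain d30.

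Leptin is a hormone made by fat cells that limits food intake, and the ob allele is a loss-of-function mutation of its gene. The labels' protocols name the strain of the breeding stock BTBR.V(B6)-Lepob/WiscJ, which in mouse nomenclature means that the ob allele arose on another stock and was crossed onto BTBR. Crossing of this kind can carry along a stretch of the donor chromosome around the selected allele, and genes in such a stretch can then differ between mutant and wild type mice by their own alleles. A change of that kind would be present in both ob/ob groups, treated or not. In these libraries every ob/ob mouse has the ob allele, whatever flanks it, and the obesity and diabetes that follow, so these cannot be told apart by the groups alone. The sequence of the flanking DNA of these mice was not analysed here.

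Levels are given as CPM, the reads of a gene over all gene reads of its library, scaled to counts per 1e6 with TMM-adjusted library sizes. A gene entered the test if enough libraries held reads (about 0.268 CPM in at least 5 libraries), and it was called changed at a Benjamini-Hochberg adjusted p under 0.05 from edgeR's quasi-likelihood test over all 17766 genes tested. Of the 59 genes 50 were tested, and 1 of these (Gpr37) would not have entered on its ob/ob libraries alone. Gene reads per library ran from 37252939 to 52528747 with atrasentan, from 35938445 to 40268662 with saline and from 29161833 to 40965108 in wild type. The atrasentan libraries stood apart in fewer genes with a read (21396 to 23081, against 24335 to 25313 with saline and 23901 to 24877 in wild type) and in a smaller share of reads outside genes (3.17% to 5.65%, against 5.95% to 8.17% with saline and 6.26% to 8.58% in wild type). The part of these differences in the atrasentan comparisons was not tested. The difference between the mean log2 levels of 12 podocyte and 12 proximal tubule markers averaged 1.88 ± 0.95 in the 7 atrasentan libraries, -0.14 ± 1.31 in the 5 saline libraries and 2.48 ± 0.59 in the 5 wild type libraries (SD). In bulk tissue, fewer cells of a type and less RNA per cell cannot be told apart.

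Of the 50 genes tested, 2 were lower than in wild type in both ob/ob groups. Both lie within 1 Mb of Lep, as do 20 of the 50 genes. They are Lrrc4, which encodes a synaptic adhesion protein with leucine-rich repeats that binds netrin-G2, and Smo, which encodes Smoothened, the membrane protein that passes on the Hedgehog signal. Lrrc4 ends 0.228 Mb before Lep on the minus strand (positions 28661831 to 28831747), inside the span of Snd1 on the plus strand. Smo starts 0.662 Mb after Lep on the plus strand (positions 29735503 to 29761365). No exon base of either gene is shared with another annotated gene. Calls in both groups in the same direction were made for 2 of 50 of these genes and for 422 of 17766 genes in all, 2.38%, with 1.30% of all genes lower in both groups. The 2 comparisons share the wild type libraries, so they are not independent of each other. The count ran from 0 to 2 when a single library was left out (0.907% to 2.88% of all genes). It was 0 without saline libraries 1 and 3 together (0.267% of all genes) and 0 with a cell marker covariate. Where it was 0, the saline calls of Lrrc4 and Smo were lost. With the covariate no gene of the whole table was called in both groups, so that 0 says nothing of these genes.

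The annotated promoters of Lep and of these neighbours that fell in both ob/ob groups are shown from RefSeq on GRCm38.p6, each 250 bases before to 50 after the start, read 5′ to 3′ on the gene's own strand. Capitals mark matches on either strand to 4 motifs. TATAA is the core of the TATA box, which places the start of transcription. CCAAT is the element known by that name and bound by the factor NF-Y. GGGCGG is the GC box bound by Sp1, a factor of many promoters. CACGTG is the E-box of helix-loop-helix factors.
Lep, chr6:29059971-29060270, plus strand: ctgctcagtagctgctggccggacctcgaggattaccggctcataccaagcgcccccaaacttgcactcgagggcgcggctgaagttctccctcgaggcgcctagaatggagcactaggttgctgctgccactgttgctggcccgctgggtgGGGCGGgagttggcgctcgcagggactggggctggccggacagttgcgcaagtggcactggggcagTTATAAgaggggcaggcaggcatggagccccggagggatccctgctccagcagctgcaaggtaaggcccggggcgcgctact
Lrrc4, chr6:28831698-28831997, minus strand: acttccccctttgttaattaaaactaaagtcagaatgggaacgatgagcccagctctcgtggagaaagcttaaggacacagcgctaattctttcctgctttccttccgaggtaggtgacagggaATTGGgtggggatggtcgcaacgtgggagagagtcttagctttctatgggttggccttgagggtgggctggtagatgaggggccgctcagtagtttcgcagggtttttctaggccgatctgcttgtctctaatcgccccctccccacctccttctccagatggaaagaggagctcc
Smo, chr6:29735247-29735546, plus strand: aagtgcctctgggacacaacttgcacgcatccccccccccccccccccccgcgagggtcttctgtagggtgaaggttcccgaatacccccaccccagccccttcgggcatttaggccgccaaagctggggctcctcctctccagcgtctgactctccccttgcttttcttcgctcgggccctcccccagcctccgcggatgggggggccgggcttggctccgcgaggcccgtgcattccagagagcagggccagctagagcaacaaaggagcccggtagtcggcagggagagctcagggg
The Lep window holds a GC box and overlapping TATAA matches on both strands, with first bases at -31 and -32 from the start. The Lrrc4 window holds 1 CCAAT box on the opposite strand, and the Smo window holds no match to any of the 4 motifs. Their GC contents are 66.0% for Lep, 52.7% for Lrrc4 and 67.7% for Smo, beside a median of 52.7% over all 32851 promoter windows of this length. Of all those windows, 24.9% hold the TATA box core, 37.4% the CCAAT element, 35.7% the GC box and 7.15% the E-box. RefSeq windows were matched for 57 of the 59 genes. A match is a string of letters and says nothing of whether a factor binds there.

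Lep itself had a single read in all, in saline library 1 (0.0263 CPM), and none in the 7 atrasentan, the 4 other saline and the 5 wild type libraries. A count of 0 allows a level of up to 3 counts per library, which is 0.0597 to 0.0873 CPM in the atrasentan libraries, 0.0722 to 0.0852 CPM in the 4 saline libraries without a read and 0.0665 to 0.0948 CPM in the wild type libraries, for counting error only. Lep is a gene of fat cells, and of 6 fat cell markers Adipoq, Plin1, Cidec and Retn averaged at most 0.0646 CPM with atrasentan, 0.0320 CPM with saline and 0.167 CPM in wild type. Cfd, which encodes adipsin, averaged 0.00405 CPM with atrasentan, 0.0104 CPM with saline and 1.10 CPM in wild type, and was not among the genes tested. Fabp4, which endothelial cells also express, stood at 341, 211 and 97.0 CPM on average in the same order. The level of Lep therefore gives no check of the genotype labels in this tissue.

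Smo was the gene among the 50 tested in which the ob/ob and wild type libraries stood fully apart. With atrasentan its lowest, median and highest levels were 24.9, 41.2 and 62.6 CPM. The saline libraries 1 to 5 had 61.0, 27.5, 64.8, 47.4 and 51.2 CPM, and the wild type libraries 1 to 5 had 93.1, 87.8, 133, 98.8 and 84.5 CPM. Every ob/ob library thus lay below every wild type library, while the treated and untreated ob/ob libraries overlapped. Such a separation, in either direction, was found for 1 of the 50 genes and for 2.63% of all genes tested, 1.54% with the ob/ob libraries below and 1.09% with them above. Against wild type, Smo fell by 1.26 ± 0.22 with atrasentan (log2, SE, adjusted p = 0.00041) and by 0.98 ± 0.24 with saline (adjusted p = 0.0281). Over both ob/ob groups it fell by 1.12 ± 0.19 (adjusted p = 0.00105). Between atrasentan and saline the log2 difference was -0.28, with a 95% interval from -0.73 to 0.18 (adjusted p = 0.338).

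The saline call of Smo was near the threshold. It was lost without wild type library 1, 2, 3 or 5 (adjusted p = 0.0525, 0.0508, 0.0751 and 0.0564), with log2 differences between -0.85 and -1.03, whereas the calls with atrasentan and over all ob/ob mice held without any single library. With the podocyte minus proximal tubule marker difference as a covariate, Smo was lower over all ob/ob mice by a log2 difference of -1.09 (adjusted p = 0.0200) and with atrasentan by -1.25 (adjusted p = 0.00048), and with saline it stood at -0.93 without a call (adjusted p = 0.588). In that fit no gene of the whole table was called in the saline comparison.

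Lrrc4 was among the lowest-expressed of the genes tested. Per kilobase of exon its wild type mean was 0.288 CPM, rank 46 of 50. With atrasentan its lowest, median and highest levels were 0.113, 0.425 and 0.902 CPM, from 4 to 31 reads a library. The saline libraries 1 to 5 had 0.341, 0.224, 0.369, 0.385 and 0.520 CPM, from 8 to 20 reads, and the wild type libraries 1 to 5 had 1.20, 0.814, 1.04, 1.25 and 1.44 CPM, from 27 to 54 reads. All saline libraries lay below all wild type libraries, and 1 atrasentan library (0.902 CPM) reached above the lowest wild type library. Lrrc4 fell by 1.40 ± 0.35 with atrasentan (log2, SE, adjusted p = 0.0068) and by 1.63 ± 0.39 with saline (adjusted p = 0.0281). Over both ob/ob groups it fell by 1.51 ± 0.31 (adjusted p = 0.00386). Between atrasentan and saline the log2 difference was 0.24, with a 95% interval from -0.54 to 1.01 (adjusted p = 0.646).

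The saline call of Lrrc4 was lost without saline library 1 or 3 (adjusted p = 0.0787 and 0.0784) and without wild type library 1, 3, 4 or 5 (adjusted p = 0.0604, 0.0567, 0.0513 and 0.0775), with the log2 difference between -1.54 and -1.67. With the marker covariate Lrrc4 stood at -1.24 over all ob/ob mice (adjusted p = 0.0767) and at -1.16 with saline (adjusted p = 0.728), and with atrasentan it was lower by a log2 difference of -1.32 (adjusted p = 0.00967). All 12 podocyte markers were lower with atrasentan and 6 of 12 were lower with saline, both against wild type. Between atrasentan and saline, 6 of the 12 were lower with atrasentan. Their summed level ran from 2242 to 5222 CPM with atrasentan, from 4736 to 9856 CPM with saline and from 8833 to 14126 CPM in wild type. The marker covariate is a difference between podocyte and proximal tubule markers, so a fall of both can leave it little changed. Its mean was 1.88 in treated ob/ob mice and 2.48 in controls, while 6 of 12 proximal tubule markers were also lower in the treated mice. It therefore does not adjust for podocyte RNA by itself. In untreated ob/ob mice its mean was -0.14, so there it largely followed the group, and that fit made no calls against controls. The part of cell makeup in these differences was not tested. Snd1, whose span holds Lrrc4 and which encodes a nuclease-domain coactivator, did not share the pattern. It averaged 162 ± 22.4 CPM with atrasentan, 133 ± 7.95 CPM with saline and 130 ± 15.3 CPM in wild type (SD), with log2 differences from wild type of 0.32 with atrasentan (adjusted p = 0.0265) and 0.03 with saline (adjusted p = 0.919).

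**Figure D1:**
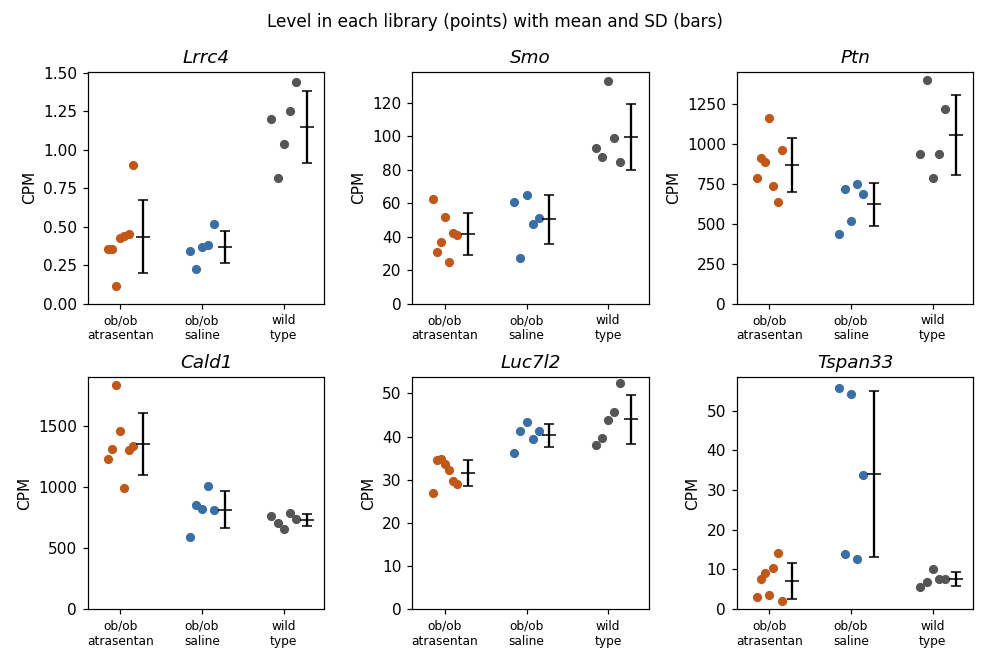
CPM of 6 genes of the stretch in each library (points), with the mean and SD of each group (bars), for ob/ob mice given atrasentan (n = 7), ob/ob mice given saline (n = 5) and wild type mice (n = 5). Lrrc4 and Smo were low in both ob/ob groups (Smo means of 41.6 CPM with atrasentan and 50.4 CPM with saline, against 99.4 CPM in wild type), Cald1 was highest with atrasentan on average, and Tspan33 was high and widely spread with saline.

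Over all 12 ob/ob mice against wild type, 5 of the 50 genes were called, beside 12.8% of all genes tested. Of these, 4 fell (Lrrc4, Smo, Ptn and Luc7l2) and 1 rose (Cald1), beside 6.52% of all genes that fell and 6.24% that rose. The median log2 difference of the 50 genes was -0.01, beside 0.015 over all genes. For 30 of the 50 genes (60.0%) the 95% interval of this difference lay wholly within 0.5 log2 units of 0, as it did for 38.5% of all genes. The interval lay within the same bounds for 30 of the 50 genes with saline (33.4% of all genes), for 25 with atrasentan (29.3%) and for 19 between atrasentan and saline (27.7%). The 50 genes and all genes were not matched for expression level. By distance from Lep, calls were made for 2 of 20 genes tested within 1 Mb, for 0 of 13 at 1 to 5 Mb and for 3 of 17 beyond 5 Mb. An unadjusted p under 0.05 was reached by 12 of the 50, while 12.8% of all genes passed even the adjusted threshold. The share of all genes at an unadjusted p under 0.05 is not given, here or below. Such counts therefore have no background to be read against.

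Ptn, Luc7l2 and Cald1 were called over all ob/ob mice, each with a change in 1 ob/ob group that did not pass in the other. Ptn encodes pleiotrophin, a secreted heparin-binding growth factor, and was the most abundant of the 50 genes per kilobase of exon (308 CPM in wild type). Its levels were 637, 886 and 1159 CPM with atrasentan (lowest, median and highest). They were 437, 715, 517, 749 and 688 CPM in saline libraries 1 to 5, and 934, 1402, 787, 939 and 1218 CPM in wild type libraries 1 to 5. All saline libraries lay below all wild type libraries, and the atrasentan libraries overlapped both groups. Ptn fell by 0.77 ± 0.19 with saline (log2, SE, adjusted p = 0.0299) and stood at -0.28 ± 0.17 with atrasentan (adjusted p = 0.230). Over all ob/ob mice it fell by 0.52 ± 0.15 (adjusted p = 0.0322), and it was higher with atrasentan than with saline by 0.48 ± 0.17 (adjusted p = 0.0415).

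These calls of Ptn were near the threshold. With any single library left out, its log2 difference with saline against wild type stayed between -0.86 and -0.64. Without saline library 1 or 3, or wild type library 2 or 5, the call over all ob/ob mice was lost (adjusted p = 0.0552, 0.0558, 0.119 and 0.105), as was the call with saline against wild type (adjusted p = 0.0921, 0.0926, 0.0754 and 0.0819). The call of atrasentan against saline was lost without saline library 1, 3 or 5 or atrasentan library 2, 3, 4 or 7 (adjusted p between 0.0521 and 0.120). With the marker covariate the Ptn difference over all ob/ob mice was -0.26 (adjusted p = 0.379).

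Luc7l2, which encodes a splicing factor of the U1 particle, differed mainly in the treated mice. Its levels were 26.9, 32.2 and 34.9 CPM with atrasentan (lowest, median and highest). They were 36.1, 41.2, 43.3, 39.4 and 41.3 CPM in saline libraries 1 to 5, and 38.1, 39.7, 43.9, 45.7 and 52.5 CPM in wild type libraries 1 to 5. All atrasentan libraries lay below all others. Luc7l2 fell by 0.48 ± 0.09 with atrasentan against wild type (log2, SE, adjusted p = 0.000977) and by 0.35 ± 0.09 against saline (adjusted p = 0.00798), and with saline it stood at -0.13 ± 0.10 against wild type (adjusted p = 0.513). Its call over all ob/ob mice (-0.30 ± 0.08, adjusted p = 0.0234) was lost without wild type library 3, 4 or 5 (adjusted p = 0.0567, 0.0574 and 0.105) and with the marker covariate (-0.35, adjusted p = 0.0610). The gene shares 18.9% of its exon bases with Gm26699, so reads there may not have been counted for it.

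Cald1, which encodes the actin-binding protein caldesmon of smooth muscle and mesangial cells, rose with treatment. Its levels were 994, 1313 and 1838 CPM with atrasentan (lowest, median and highest). They were 587, 854, 819, 1008 and 808 CPM in saline libraries 1 to 5, and 764, 707, 657, 788 and 739 CPM in wild type libraries 1 to 5. All atrasentan libraries lay above all wild type libraries, and saline library 4 lay just above the lowest atrasentan library. Cald1 rose by 0.89 ± 0.14 with atrasentan against wild type (log2, SE, adjusted p = 0.00021) and by 0.73 ± 0.14 against saline (adjusted p = 0.00108). With saline it stood at 0.16 ± 0.15 against wild type (adjusted p = 0.602). Of 8 mesangium and pericyte markers 5 were higher with atrasentan than in wild type and 6 were higher than with saline. Their summed level ran from 8098 to 13961 CPM with atrasentan, from 5770 to 7863 CPM with saline and from 5223 to 6826 CPM in wild type, and their part in the rise of Cald1 was not tested.

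**Figure D2:**
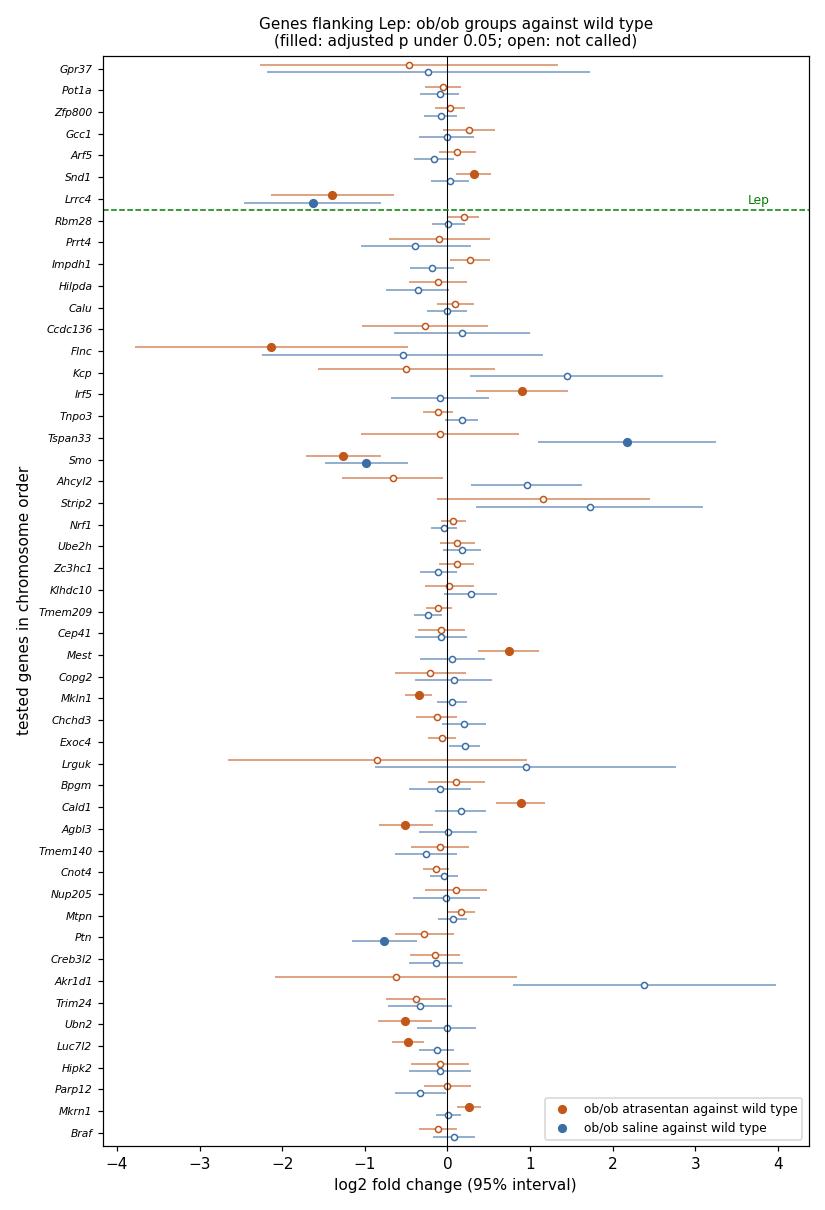
Log2 fold change of the 50 tested genes in chromosome order, with 95% intervals, for ob/ob mice given atrasentan and ob/ob mice given saline, each against wild type; filled points passed the adjusted threshold and the dashed line marks Lep. Lrrc4 and Smo have filled points in both comparisons, both below 0.

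With saline alone, 4 of the 50 genes were called against wild type, beside 5.12% of all genes. Lrrc4, Smo and Ptn fell (lower calls were made for 1.91% of all genes and higher calls for 3.21%), and Tspan33, which encodes a tetraspanin membrane protein, rose. Tspan33 had 1.98, 7.54 and 14.2 CPM with atrasentan (lowest, median and highest). It had 55.8, 13.9, 54.3, 12.6 and 33.8 CPM in saline libraries 1 to 5, and 5.45, 6.81, 10.2, 7.70 and 7.60 CPM in wild type libraries 1 to 5. All saline libraries lay above all wild type libraries, and the highest values were in saline libraries 1 and 3. Tspan33 rose by 2.17 ± 0.51 with saline against wild type (log2, SE, adjusted p = 0.0254) and fell by 2.26 ± 0.45 with atrasentan against saline (adjusted p = 0.0015). With atrasentan it differed from wild type by -0.09 (95% interval from -1.05 to 0.87, adjusted p = 0.904).

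Saline libraries 1 and 3 also had the lowest podocyte minus proximal tubule marker difference, at -1.44 and -1.37. In the other saline libraries it ran from 0.12 to 1.70. With this difference as a covariate the Tspan33 estimate with saline turned to -0.17 (adjusted p = 0.960), and with atrasentan against wild type it passed at -0.87 (adjusted p = 0.0152). The saline call was lost without saline library 1 or 3 (adjusted p = 0.0721 and 0.0761), and without wild type library 1, 2, 3 or 5 (adjusted p = 0.0646, 0.0611, 0.0503 and 0.0675). Without saline libraries 1 and 3 together the Tspan33 estimate was 1.39 (adjusted p = 0.300). There edgeR called none of the 50 genes in this comparison, beside 0.294% of all genes, with 5 of the 50 at an unadjusted p under 0.05.

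In atrasentan-treated ob/ob mice against wild type 12 of the 50 genes were called, beside 29.2% of all genes, 14.7% higher and 14.5% lower. The 5 that rose were Snd1, Irf5, a transcription factor of myeloid cells in the interferon response, Mest, an imprinted hydrolase-like gene, Cald1 and Mkrn1, a ubiquitin ligase. The 7 that fell were Lrrc4, Flnc, which encodes the actin crosslinker filamin C, Smo, Mkln1, which encodes muskelin of a ubiquitin ligase complex, Agbl3, a tubulin carboxypeptidase, Ubn2, a histone chaperone subunit, and Luc7l2. Irf5 averaged 24.2 ± 8.52 CPM with atrasentan, 12.2 ± 2.25 CPM with saline and 12.9 ± 4.63 CPM in wild type (SD), a log2 difference from wild type of 0.90 (adjusted p = 0.0165). Mest averaged 107 ± 27.4 CPM with atrasentan, 66.9 ± 12.6 CPM with saline and 64.2 ± 14.3 CPM in wild type, a log2 difference of 0.74 (adjusted p = 0.00467). Mest shares 23.1% of its exon bases with Copg2 on the opposite strand, and Irf5 shares 14.1% of its own with Tnpo3; reads on such bases cannot be assigned to either gene without strand. Of 8 macrophage markers 7 were higher with atrasentan than in wild type, with summed levels from 264 to 1350 CPM against 178 to 557 CPM; their part in the rise of Irf5 was not tested.

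Some of these calls were close to the threshold. Flnc averaged 0.114 ± 0.164 CPM with atrasentan and 0.501 ± 0.210 CPM in wild type (adjusted p = 0.0498), and its call was lost in 15 of the 17 fits that leave out a single library (adjusted p of up to 0.115). The call of Snd1 was lost without atrasentan library 1 (adjusted p = 0.0555) or wild type library 2, 3 or 5 (adjusted p = 0.0529, 0.0559 and 0.0819), that of Irf5 without wild type library 3 (adjusted p = 0.0510) and that of Agbl3 without wild type library 5 (adjusted p = 0.0627). The calls of Smo, Lrrc4, Mest, Mkln1, Cald1, Ubn2, Luc7l2 and Mkrn1 in this comparison held in all 17 such fits.

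Between atrasentan and saline, where both groups carry the ob allele, 19 of the 50 genes were called, beside 33.8% of all genes, 15.3% higher and 18.5% lower. Neither Lrrc4 nor Smo was among them. The 8 that rose with atrasentan were Arf5, Snd1, Impdh1, Irf5, Mest, Cald1, Ptn and Mkrn1, and the 11 that fell were Kcp, Tnpo3, Tspan33, Ahcyl2, Mkln1, Chchd3, Exoc4, Agbl3, Akr1d1, Ubn2 and Luc7l2. With the marker covariate edgeR called none of the 50 in this comparison (12 had an unadjusted p under 0.05), while it called 7.83% of all genes.

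The largest falls in that comparison were in genes that were high in saline libraries. Akr1d1, a steroid reductase of bile acid synthesis, had 0, 0.307 and 2.22 CPM with atrasentan (lowest, median and highest), and 6.86, 2.60, 10, 1.80 and 3.38 CPM in saline libraries 1 to 5. In wild type libraries 1 to 5 it had 0.753, 1.18, 1.20, 0.791 and 0.796 CPM. It fell by 3.0 ± 0.69 with atrasentan against saline (log2, SE, adjusted p = 0.00358), and 1 atrasentan library reached into the range of the saline group. Ahcyl2, a relative of the adenosylhomocysteine hydrolases, had 28.1, 34.7 and 89.7 CPM with atrasentan, and 186, 82.9, 194, 70.9 and 107 CPM in saline libraries 1 to 5. In wild type libraries 1 to 5 it had 65.9, 52.5, 78.0, 74.7 and 58.9 CPM. It fell by 1.62 ± 0.29 with atrasentan against saline (adjusted p = 0.000742). Kcp, an extracellular modulator of BMP signalling, fell by 1.94 ± 0.51 (adjusted p = 0.0078), with 1.75 ± 1.45 CPM with atrasentan and 6.75 ± 3.75 CPM with saline (SD). Akr1d1, Ahcyl2 and Tspan33 all had their highest saline values in libraries 1 and 3. Of 12 proximal tubule markers 11 were lower with atrasentan than with saline, with summed levels from 440 to 1887 CPM against 2204 to 10078 CPM.

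Smaller differences were seen in genes with little spread. Mkln1 had 89.7, 101 and 123 CPM with atrasentan (lowest, median and highest), 136, 129, 131, 132 and 140 CPM in saline libraries 1 to 5, and 119, 132, 137, 130 and 128 CPM in wild type libraries 1 to 5. All atrasentan libraries lay below all saline libraries, and 1 of them lay within the wild type range. Mkln1 fell by 0.40 ± 0.08 with atrasentan against saline (log2, SE, adjusted p = 0.00118) and by 0.35 ± 0.08 against wild type (adjusted p = 0.00285). Impdh1, an enzyme of guanine nucleotide synthesis that lies 0.127 Mb after Lep, had 241, 291 and 386 CPM with atrasentan, 194, 240, 195, 228 and 217 CPM in saline libraries 1 to 5, and 232, 239, 211, 284 and 255 CPM in wild type libraries 1 to 5. It rose by 0.46 ± 0.12 with atrasentan against saline (adjusted p = 0.00713), with a log2 difference from wild type of 0.27 (adjusted p = 0.0879). The other calls of this comparison had log2 differences between -0.52 (Agbl3) and 0.99 (Irf5), and those of Arf5, Snd1, Tnpo3, Chchd3, Agbl3 and Ubn2 were lost without some single library (12, 9, 2, 8, 1 and 1 of 17 fits, with adjusted p of up to 0.131).

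Tmem209, a nuclear envelope protein gene, and Strip2, a subunit of the STRIPAK kinase and phosphatase complex, had the next lowest p over all ob/ob mice and were not called. Tmem209 had 40.6, 46.4 and 47.8 CPM with atrasentan (lowest, median and highest), 42.2, 36.3, 43.6, 40.2 and 41.7 CPM in saline libraries 1 to 5, and 50.4, 46.6, 52.0, 47.7 and 44.2 CPM in wild type libraries 1 to 5. Its saline libraries lay below its wild type libraries, with a log2 difference over all ob/ob mice of -0.17 ± 0.07 (adjusted p = 0.0942). Strip2, which starts 0.843 Mb after Lep, had 0.0283, 0.553 and 1.81 CPM with atrasentan, 1.60, 0.559, 1.99, 0.674 and 1.27 CPM in saline libraries 1 to 5, and 0.377, 0.694, 0.284, 0.213 and 0.265 CPM in wild type libraries 1 to 5. Its log2 difference over all ob/ob mice was 1.44 ± 0.58 (adjusted p = 0.112), and the groups overlapped.

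Several genes that lie closer to Lep than Smo does were not called in either ob/ob group against wild type. Rbm28, a nucleolar RNA-binding protein gene that lies 0.0497 Mb after Lep, averaged 98.3 ± 9.63 CPM with atrasentan, 86.4 ± 8.75 CPM with saline and 85.7 ± 7.54 CPM in wild type (SD). Its log2 difference over all ob/ob mice was 0.11 (95% interval from -0.06 to 0.27, adjusted p = 0.419). Hilpda, a lipid droplet protein gene induced by hypoxia, stood at -0.24 (95% interval from -0.55 to 0.08, adjusted p = 0.328). Calu, which encodes the calcium-binding chaperone calumenin, stood at 0.04 (95% interval from -0.16 to 0.25, adjusted p = 0.821). Prrt4 stood at -0.24 (95% interval from -0.8 to 0.31, adjusted p = 0.587). Between Lrrc4 and Smo lie 11 other tested genes of the list. None of them was called over all ob/ob mice, beside 12.8% of all genes tested. In single groups against wild type, Tspan33 was called with saline (beside 5.12% of all genes). Flnc and Irf5 were called with atrasentan (beside 29.2%), as was Snd1, which also lies closer to Lep than Smo does.

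**Figure D3:**
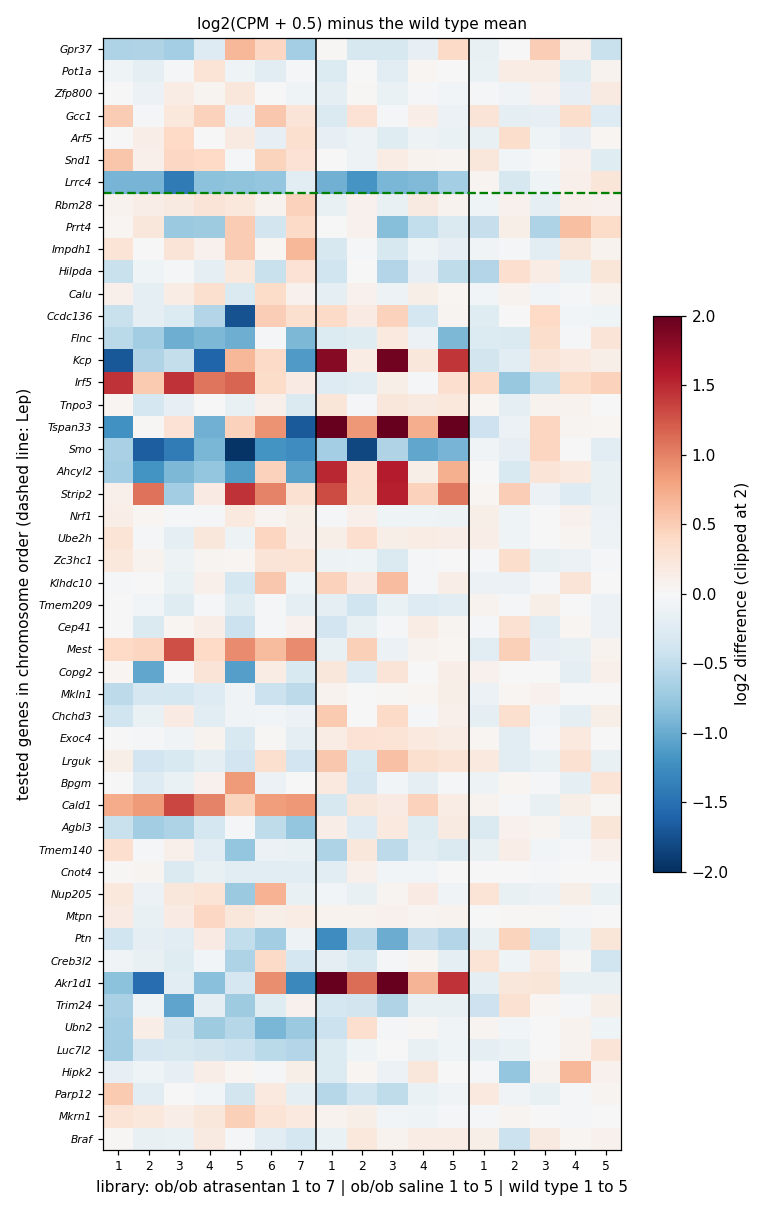
Log2(CPM + 0.5) of the 50 tested genes in each library minus the wild type mean of the gene, in chromosome order, with ob/ob atrasentan libraries on the left, ob/ob saline libraries in the middle and wild type libraries on the right; colours are clipped at 2. Lrrc4 and Smo are blue in every ob/ob library, while Tspan33, Ahcyl2, Kcp and Akr1d1 are red in saline libraries 1 and 3.

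In all, 28 of the 50 tested genes were called in none of the 4 comparisons, beside 55.2% of all genes tested. In chromosome order they are Gpr37, Pot1a, Zfp800, Gcc1, Rbm28, Prrt4, Hilpda, Calu, Ccdc136, Strip2, Nrf1, Ube2h, Zc3hc1, Klhdc10, Tmem209, Cep41, Copg2, Lrguk, Bpgm, Tmem140, Cnot4, Nup205, Mtpn, Creb3l2, Trim24, Hipk2, Parp12 and Braf. Among them are widely used genes such as Braf, a kinase of the MAP kinase pathway, with 41.6 ± 5.06 CPM with atrasentan, 47.5 ± 4.15 CPM with saline and 44.8 ± 6.89 CPM in wild type (SD), and Cnot4, a subunit of the deadenylase complex.

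The 9 genes not tested, Lep among them, had few or no reads. Pax4, an islet transcription factor, had no read in any library, and Fscn3, a fascin of the testis, had 3 reads in all. Chrm2, a muscarinic receptor, had 9 reads, Cpa1, a pancreatic carboxypeptidase, had 20, and Klf14, a transcription factor, had 22. Dgki, a diacylglycerol kinase, had 35 reads, and Grm8, a glutamate receptor, and Opn1sw, the blue cone opsin, had 45 reads each over the 17 libraries. None of the Klf14 reads lay in a wild type library, and 25 of the Dgki reads lay in atrasentan library 2. These 9 genes did not enter the main test, so differences between groups were not judged.

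Within the same stretch the annotation holds 178 other genes, of which 41 are protein-coding and 57 were tested. Over all ob/ob mice 4 of these 57 were called (7.02%, beside 12.8% of all genes), all lower. With atrasentan 14 were called (24.6%, beside 29.2%) and with saline none (beside 5.12%), each against wild type by edgeR. With saline an unadjusted p under 0.05 was reached by 13 of the 57, and DESeq2 called 5 of them, beside 11.1% of all genes. None was called by edgeR in both ob/ob groups. Those called over all ob/ob mice were Podxl, Fam180a, 4930599N23Rik and Gm42963, and all 4 lie 2.45 Mb or farther from Lep. Podxl encodes podocalyxin of the podocyte surface and is among the 12 podocyte markers behind the marker covariate. All 12 of these markers were lower over all ob/ob mice. Podxl averaged 1654 ± 385 CPM with atrasentan, 1996 ± 392 CPM with saline and 2783 ± 553 CPM in wild type (SD). Its log2 difference over all ob/ob mice was -0.62 ± 0.15 (SE, adjusted p = 0.0138). Fam180a stood 6.24 Mb after Lep and averaged 0.197 ± 0.167, 0.306 ± 0.224 and 1.60 ± 0.672 CPM in the same order, with every ob/ob library below every wild type library (-2.69 ± 0.60, adjusted p = 0.00642). Against wild type Fam180a stood at -2.37 with saline (adjusted p = 0.0793) and at -3.01 with atrasentan (adjusted p = 0.00447). The log2 differences of 4930599N23Rik and Gm42963 over all ob/ob mice, both non-coding or unclassified, were -1.0 and -1.81.

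Along the whole of chromosome 6, 128 of 1037 tested genes were called over all ob/ob mice (12.3%) and 26 in both ob/ob groups in the same direction (2.51%). In bins of 5 Mb, the bin from 25 to 30 Mb that holds Lep had 2 of 30 tested genes called over all ob/ob mice (6.67%) and 2 in both groups (6.67%). Over the 21 bins with at least 20 tested genes the first share ran from 2.27% to 26.1%, and 13 of these bins had at least 1 gene called in both groups. The following bin, from 30 to 35 Mb, had 2 of 37 called over all ob/ob mice (5.41%) and none in both groups. The share called in both groups was higher than in the Lep bin from 90 to 95 Mb, with 4 of 43 genes (9.30%), and from 140 to 145 Mb, with 2 of 23 (8.70%). In the remaining bins with at least 20 tested genes, the Lep bin aside, it was at most 5.26%.

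**Figure D4:**
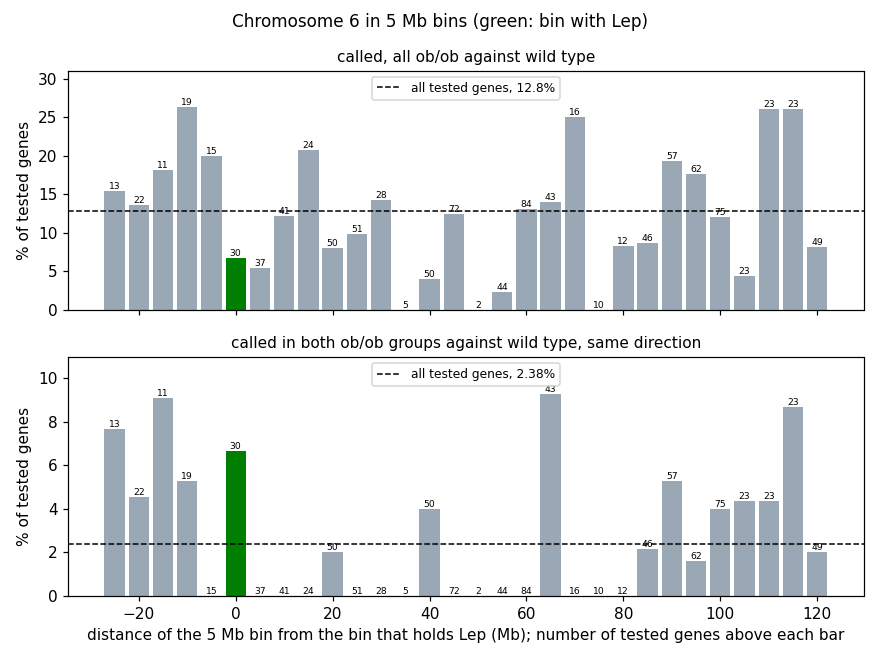
Share of tested genes called in each 5 Mb bin of chromosome 6, by distance from the bin that holds Lep (green), over all ob/ob mice against wild type (upper panel) and in both ob/ob groups in the same direction (lower panel); small numbers give the genes tested per bin and dashed lines the share over all genes tested. The Lep bin stands at 6.67% in both panels, below the 12.8% and above the 2.38% of all genes, and other bins reach higher in each.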

How the data were processed

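Poly(A)+ RNA of glomeruli-enriched kidney cortex from 17 mice was sequenced as single-end reads with a kit that does not mark strand, per the labels' protocols. The deposited count table holds raw read counts per gene; STAR, HTSeq and build GRCm38 are named in the submitters' processing notes, without versions. A second deposited table holds log2-like values normalized by the authors, with no transform stated; DESeq2, edgeR and limma are named in the same notes. It was used as an alternative only. HTSeq's closing lines were left out of library sizes. Ambiguous reads came to between 2.93% and 3.37%, and alignments that were not unique to between 23.4% and 31.8%. Reads outside genes are given by group above.

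Counts were filtered (filterByExpr), scaled by TMM and fitted with edgeR 4.0.16 (R 4.3.3) in 1 quasi-likelihood model of 3 groups, with 4 two-sided contrasts and Benjamini-Hochberg adjustment over all 17766 genes tested. A count across all ob/ob mice weights both ob/ob groups equally. Alternatives used DESeq2 1.42.0, limma 3.58.1 (voom, and limma on the normalized table), other scaling, no filter, the groups compared only, a podocyte minus proximal tubule marker covariate, and each library left out. The scripts were tested on simulated data. No 2 libraries of a group agreed within sampling noise (chi-square per degree of freedom at least 25.8 over 41 pairs). All libraries carry the same batch label. Per library, 3 counts were taken as the limit a count of 0 allows; it covers counting error only.

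The genes and marker lists were chosen with earlier results of these data known. Every gene of the list is accounted for; library values are given for Lep, for genes called in the same direction in both ob/ob groups, and for up to 10 others with the lowest p over all ob/ob mice or between atrasentan and saline. Of other genes in the stretch, up to 6 with the largest differences among those called were named.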

Additional observations from a re-analysis of the deposited data

Results flagged for a closer look

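Of 36 groups of library values examined (12 genes in 3 groups), 2 held a library far from the rest, and chance flags about 1 group in 20. Both were atrasentan library 6. For Ahcyl2 it had 89.7 CPM, while the other atrasentan libraries had 28.1 to 40.8 CPM; the gap was 0.793 of the group's range, above Dixon's critical value of 0.568. For Akr1d1 it had 2.22 CPM, while the others had 0 to 0.736 CPM, a gap of 0.669 of the range. Atrasentan library 6 also had the lowest podocyte minus proximal tubule marker difference of its group, 0.72 on the log2 scale; the part of cell makeup in these values was not tested.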

How the results depend on the processing

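With edgeR fitted on the groups compared only, 7 genes of the list were called with saline against wild type in place of 4 (all genes, 8.34%). With the marker covariate 1 gene of the list had an unadjusted p under 0.05 with saline against wild type. The counts called in that fit were 2 over all ob/ob mice (all genes, 7.61%) and 0 between atrasentan and saline (all genes, 7.83%). They were 0 with saline (all genes, 0) and 0 in both ob/ob groups (all genes, 0). Without saline libraries 1 and 3 together, an alternative chosen after seeing the data, they were 0 with saline (0.294%), 7 between atrasentan and saline (14.0%) and 0 in both groups (0.267%); there Smo with saline stood at -1.25 (adjusted p = 0.0643), Lrrc4 at -1.61 (adjusted p = 0.229) and Ptn over all ob/ob mice at -0.42 (adjusted p = 0.0967). With 1 library left out, counts ran from 3 to 6 over all ob/ob mice (all genes, 7.82% to 15.9%), from 0 to 6 with saline (1.20% to 8.44%), from 9 to 13 with atrasentan against wild type (22.7% to 31.8%), from 14 to 21 between atrasentan and saline (24.2% to 35.8%) and from 0 to 2 in both groups (0.907% to 2.88%). DESeq2, limma-voom, upper-quartile scaling, no low-count filter and the authors' normalized table each called 2 in both groups, beside 4.29%, 1.91%, 2.68%, 0.998% and 2.43% of all genes in that order; the 2 of 50 under DESeq2 are thus near the share of all genes. Tspan33 with saline against wild type turned to -0.17 (adjusted p = 0.960) with the marker covariate; the cause was not tested. Over 200 gene values and 4940 alternative estimates, 4751 stayed on their side of the threshold with no called value turned round, 150 lost a call, 38 gained one and 1 reversed. No paired analysis was possible because the labels number no replicates across groups. Depth limits the 9 untested genes, Lep among them, and low genes such as Flnc and Lrrc4, which rest on few reads per library.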
